A study of Mus musculus with 96 samples.

Results

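The distal end of mouse chromosome 4, from the downstream breakpoint of an engineered deletion in band 4E2 to the last base of the chromosome, was followed as a contact partner of 12 viewpoints. Its members are the HindIII fragments whose end lies from 154411695 to 155630120 in the mm9 (NCBI37) assembly. They number 281 of the 48320 HindIII fragments of the chromosome and cover 1.22 Mb. The choice rests on position alone and used no measured contact. PE-4Cseq, a paired-end form of chromosome conformation capture, counts ligation products between 1 chosen fragment (the viewpoint) and every other fragment, and a strain polymorphism read at the viewpoint assigns each product to 1 homologue.

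Libraries came from mouse embryonic fibroblasts (MEFs), isolated from 13.5-day embryos and grown to confluence at passage 4. The deletion came through a cross between chimeric Df/Dp males, made from engineered 129S5SvEvBrd embryonic stem cells, and C57BL/6J females. As controls the paper used first-generation crosses with an undeleted chromosome 4 from each strain. Line 129S5E71 (E71) and line 129S5E98 (E98) carried the deletion on the 129S5 homologue and gave the Df chromosome (129S5, deleted) and the +DBl6 chromosome (C57BL/6J, undeleted, in the same cells). Line 129S5E117 (E117) and line 129S5E118 (E118) carried no deletion and gave +129 (129S5) and +Bl6 (C57BL/6J). Each line contributed 1 library per homologue and viewpoint, 96 libraries in all, so every group holds 2 embryo-derived lines and no treatment was applied. Viewpoints 1 and 2, named 147.9 and 148.9 after their position in Mb, lie upstream of the deletion. Viewpoints 3 to 10 lie inside it, and viewpoints 11 and 12 lie in the distal flank itself.

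Chromatin contacts within a chromosome become rarer as the linear distance between 2 loci grows, and gene-rich and gene-poor stretches tend to contact their own kind. A deletion removes the intervening DNA and so brings the sequence beyond it closer to every locus on the other side. Subtelomeric stretches are often gene-dense and lie beside the repeats that cap the chromosome, where short reads cannot be placed uniquely.

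On the undeleted chromosome the flank began 6.43 Mb from viewpoint 1 and 5.49 Mb from viewpoint 2. On Df those distances were 2.11 and 1.16 Mb. Between the upstream viewpoints and the flank lies the deleted interval, taken as chr4:150083826-154411694, 4.33 Mb with 1108 fragments. Its start was placed from the captured fragments, and its end was set at the base before the flank. The flank held the starts of 52 protein-coding genes, 42.7 per Mb, against 10.9 per Mb in the deleted interval and 8.88 per Mb over the chromosome from its first sequenced base (GENCODE annotation of NCBIM37). Guanine and cytosine made up 48.8% of its bases, against 50.2% in the deleted interval and 42.3% over the chromosome.

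The sequences below show the boundary and the ends of the fragments on which the results turn, read from the NCBIM37 reference. The first crosses the HindIII site at which the flank begins, chr4:154411665-154411724. Each other line is the left end of a flank fragment, 30 bases (26 for fragment 110) on the forward strand, 5′ to 3′. Reads are counted to a fragment from either of its ends, with at most 3 mismatches. HindIII sites are in capitals. Fragments are numbered from 1 at the deletion side to 281 at the chromosome end. Every 30-base end shown occurs once among the HindIII sites of the genome. Fragments 187, 188 and 131 had the highest mean levels from viewpoint 1, fragments 146, 76 and 110 from viewpoint 2, and fragments 62, 83, 115, 105 and 53 were captured in the most libraries.
Flank boundary: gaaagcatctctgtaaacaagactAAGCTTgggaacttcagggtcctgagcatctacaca
Fragment 53, chr4:154672096-154672125: AAGCTTgggtcttccatttccttaaccaac
Fragment 62, chr4:154722096-154722125: AAGCTTtagaggcacttggtagggaactcg
Fragment 76, chr4:154791090-154791119: AAGCTTttttaaaaataggagttagaaaga
Fragment 83, chr4:154826893-154826922: AAGCTTcttacaagttgattgatttttgtc
Fragment 105, chr4:154893680-154893709: AAGCTTcatgtcctttagaactttattata
Fragment 110, chr4:154914300-154914325: AAGCTTttcccataatattcAAGCTT
Fragment 115, chr4:154951836-154951865: AAGCTTgccagagactgacactgactccag
Fragment 131, chr4:155012196-155012225: AAGCTTctctggaacctagaataactgata
Fragment 146, chr4:155066291-155066320: AAGCTTtctcttacatgaaaggaagctgat
Fragment 187, chr4:155235610-155235639: AAGCTTctacccaccatcctttttgcctgt
Fragment 188, chr4:155237212-155237241: AAGCTTcggttcactcccaccccagctact

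Depth and independence of the libraries bear on every value. Libraries held 444 to 3969613 chromosome 4 reads. At viewpoint 1 the Df library of line E71 held 32611 reads outside 20 kb around the viewpoint and the other Df and +129 libraries 199628 to 543775. Both lines of +DBl6 at viewpoints 4, 6, 7 and 8, and both lines of +129 and of +Bl6 at viewpoint 9, shared 76.3% to 87.5% of their distant fragments with read counts correlated at 0.936 to 0.972, and each such pair was added up and counted as 1 library. No pair of lines was merged at viewpoints 1 and 2. There, the 2 homologues of a line shared 27.6% to 67.5% of the distant fragments of the smaller library, and libraries of different lines 17.2% to 43.8%. Reads carry no molecular identifiers, so intervals cover counting error only.

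The first question was whether the flank took a larger share of the contacts of the upstream viewpoints on Df, where it lies closer, than on +129. From viewpoint 2 it did in both lines, and from viewpoint 1 the lines overlapped. All shares are percentages of the chromosome 4 reads outside 20 kb around the viewpoint.

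From viewpoint 2, the Df flank held 3.27% of the reads in line E71 (95% Wilson interval 3.18% to 3.36%) and 2.71% in line E98 (2.66% to 2.77%). On +129 the flank held 1.93% in E117 (1.88% to 1.98%) and 1.08% in E118 (1.05% to 1.12%). Both Df lines lay above both +129 lines. The means were 2.99% ± 0.39 on Df and 1.51% ± 0.598 on +129 (SD, n = 2 lines each), a ratio of 1.98. The exact two-sided permutation test gave p = 0.333, the smallest value that 2 lines against 2 allow, so this design cannot reach 0.05. Outside the viewpoint zone lay 142633 of 930341 chromosome 4 reads in E71 and 309300 of 2194791 in E98. On +129 these were 307749 of 636214 in E117 and 428927 of 1777459 in E118. Flank reads numbered 4659, 8396, 5937 and 4650 in that order. Taken over all chromosome 4 reads, the flank shares of the groups overlapped. The +129 line E117 was then the highest and E118 the lowest, and the mean was lower on Df than on +129.

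Read counts in 4C depend on amplification, so captured fragments (at least 1 read) were counted too. From viewpoint 2, flank fragments made up 7.94% and 5.44% of the captured fragments on Df and 2.95% and 3.31% on +129. The groups again did not overlap (6.69% ± 1.77 against 3.13% ± 0.26, ratio 2.14, exact permutation p = 0.333). In absolute terms 110 and 174 of the 281 flank fragments were captured on Df and 92 and 120 on +129, which overlapped, in libraries of 142633 and 309300 against 307749 and 428927 reads outside the viewpoint zone. The part of these depths in the captured counts was not tested.

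From viewpoint 1, the Df flank held 4.38% of the reads in E71 (4.16% to 4.61%) and 5.04% in E98 (4.98% to 5.1%). The corresponding +129 shares were 5.1% in E117 and 4.82% in E118. Line E71 was below both +129 values and line E98 between them, with means of 4.71% ± 0.467 and 4.96% ± 0.195 (SD, n = 2 each), a ratio of 0.95 and an exact permutation p of 0.667. By captured fragments the ratio was 1.32, from 5.88% and 3.28% on Df and 3.7% and 3.25% on +129. The high Df value was that of the shallow E71 library, which captured 98 flank fragments where E98 captured 211, and the part of depth in it was not tested. Reads in the deleted interval enter the +129 denominator and hardly that of Df. Without them both Df lines fell below both +129 lines at viewpoint 1 (4.73% ± 0.468 against 5.35% ± 0.222, ratio 0.884), while the viewpoint 2 ratio was 1.93.

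The intact C57BL/6J homologue of the same cells gives the background of the comparison. From viewpoint 2 the +DBl6 flank held 1.11% and 0.936% of the reads, and the +Bl6 flank 0.989% and 1.29%. These 4 values overlapped and all lay below both Df values. Counted as captured fragments, both +DBl6 lines were above both +Bl6 lines (4.34% ± 0.155 against 3.11% ± 0.327, ratio 1.4) and below both Df lines. The homologues of a line shared 33.9% to 56.8% of distant fragments at viewpoint 2, with read counts correlated at -0.569 to -0.188. Whether reads of 1 homologue were assigned to the other, which would enter these captured counts, was not tested. Within a line, the 129S5 share over the C57BL/6J share was 2.93 in E71 and 2.9 in E98, the lines with the deletion, and 1.95 in E117 and 0.841 in E118, the lines without it. By captured fragments these ratios were 1.78, 1.29, 1.02 and 0.991. From viewpoint 1 the +DBl6 flank held 3.95% and 4.32% and the +Bl6 flank 3.48% and 4.23%, and the ratios within lines were 1.11, 1.17, 1.47 and 1.14, and those of the deletion and control lines overlapped.

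**Figure D1:**
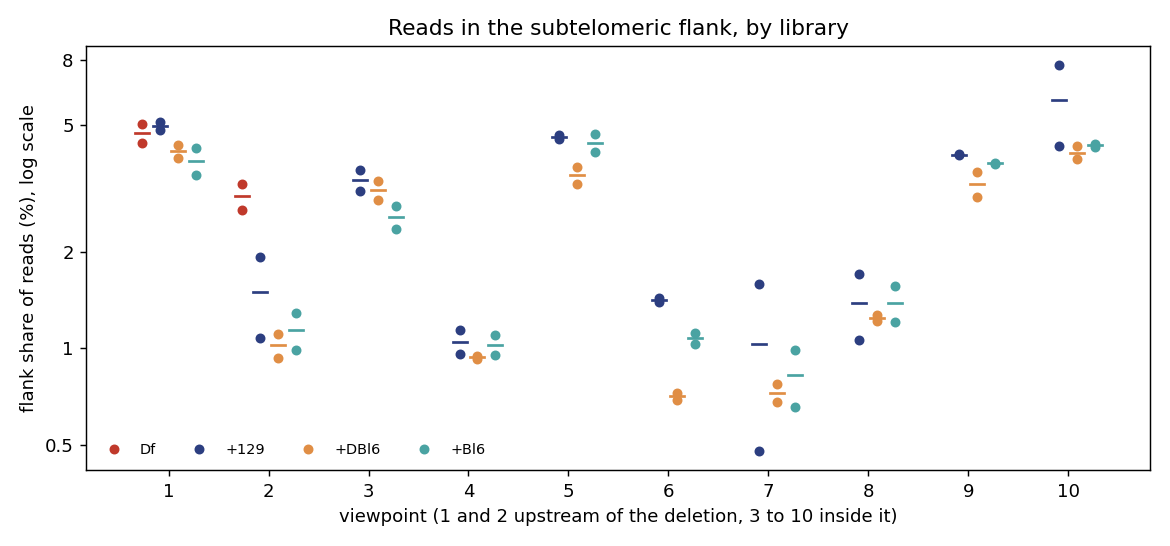
Share of reads outside 20 kb around the viewpoint that fell in the distal flank, for viewpoints 1 to 10, on a logarithmic axis in percent. Each point is 1 library before merging, so the pairs counted as 1 library in the text appear as separate points. At viewpoint 2 the Df libraries (3.27% and 2.71%) lie above all others, and at viewpoint 1 one lies below both +129 libraries (4.38%) and one between them (5.04%).

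A second comparison set the Df flank beside the stretch that lies, on the undeleted +129 chromosome, at the same distance from the viewpoint. That stretch is the first part of the deleted interval, chr4:150083826-151302251, with 340 fragments. From viewpoint 2 the Df flank held 3.27% and 2.71% of the reads and the +129 stretch 1.65% and 1.25%, a ratio of means of 2.06 (2.99% ± 0.39 against 1.45% ± 0.286). From viewpoint 1 the Df flank held 4.38% and 5.04% and the +129 stretch 3.08% and 3.14%, a ratio of 1.52 (4.71% ± 0.467 against 3.11% ± 0.0408). At both viewpoints the Df flank lay above the +129 stretch in both lines, with an exact permutation p of 0.333 each, again the smallest value possible. The +129 flank, though farther away, also lay above that stretch from viewpoint 1, at 5.1% and 4.82%. From viewpoint 2 it held 1.93% and 1.08%, which overlapped the stretch. By share of captured fragments the ratios were 1.71 and 1.53. As a percentage of their own fragments, 34.9% and 75.1% of the Df flank and 43.2% and 57.1% of the +129 stretch were captured from viewpoint 1, which overlapped, and 39.1% and 61.9% against 35.3% and 42.4% from viewpoint 2, which overlapped as well. Distance and strain are held fixed here, but the stretches differ in sequence and the chromosomes in the deletion and the lines, which cannot be told apart.

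**Figure D2:**
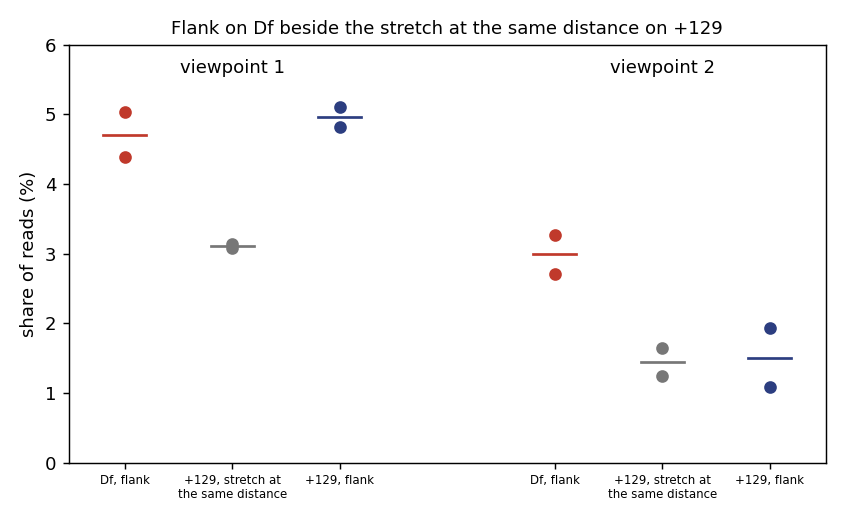
Share of reads, in percent, held by the Df flank, by the stretch of +129 at the same distance from the viewpoint and by the +129 flank, for viewpoints 1 and 2, with 1 point per library and lines at the means. The Df flank is above the stretch at the same distance at both viewpoints (ratios 1.52 and 2.06), and above the +129 flank at viewpoint 2. At viewpoint 1 the +129 flank (5.1% and 4.82%) is above that stretch as well.

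Along the flank, the reads from the upstream viewpoints were unevenly spread, and the 2 viewpoints peaked in different places. Position was followed in 4 segments of nearly equal length, cut at fragment ends. Segment 1 (154411695 to 154704711) borders the deletion, followed by segment 2 (154704712 to 155020883), segment 3 (155020884 to 155321628) and segment 4 (155321629 to 155630120), which ends at the telomere. They hold 59, 74, 80 and 68 fragments and 7, 10, 22 and 13 coding gene starts.

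From viewpoint 1, segment 3 was the densest on both 129S5 chromosomes. It held 35.9% and 55.6% of the flank reads on Df and 36.2% and 44.4% on +129. Segment 1, the part next to the breakpoint, held 15.3% and 8.67% on Df and 22.2% and 17.2% on +129. Both Df lines were thus below both +129 lines next to the breakpoint (12% ± 4.72 against 19.7% ± 3.58, exact permutation p = 0.333), and the other 3 segments overlapped. By captured fragments segment 1 also overlapped, at 17.3% ± 7.09 against 22.3% ± 2.37 (exact permutation p = 0.667).

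From viewpoint 2, segment 2 was the densest. In RPM (reads scaled to a common total of reads outside the viewpoint zone) per kb, it stood at 53.7 and 33.1 on Df and 22.7 and 15.1 on +129. Segment 1 stood at 14.7 and 27.4 on Df against 7.83 and 8.7, and segment 3 at 28 and 23 against 12.4 and 7.63. In these 3 segments both Df lines were above both +129 lines. In segment 4 the values were 9.55 and 5.7 on Df and 19.8 and 3.98 on +129, which overlapped. As a share of the flank's own reads, segment 3 was higher on Df (25.6% ± 0.262 against 20.2% ± 1.34) and segment 4 lower (7.75% ± 1.79 against 21.5% ± 14.4), each with an exact permutation p of 0.333. By captured fragments both overlapped, with 26.9% ± 0.591 on Df and 26.7% ± 7.02 on +129 in segment 3 and 12.6% ± 2.45 and 12.9% ± 1.74 in segment 4. Without the most-read fragment of each segment, segment 3 also overlapped (23% ± 2.25 against 19.5% ± 10.6). On the C57BL/6J homologue the captured share of segment 4 was lower on +DBl6 than on +Bl6 (9.69% ± 2.99 against 16.9% ± 2.68, exact permutation p = 0.333).

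In bins of 100 kb, the first bin beyond the breakpoint held 4.82 and 14.5 RPM per kb on Df from viewpoint 2 and 0.575 and 1.19 on +129. The bin centred 0.55 Mb into the flank held 51 and 50.6 on Df and 36 and 27.3 on +129. Over the first 8 bins the Df lines were above the +129 lines except in the second and the fourth, where 1 Df line fell between the +129 values. The highest single bin, 80.8 at 0.35 Mb on Df of line E71, was not matched in line E98, where it stood at 20.9.

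**Figure D3:**
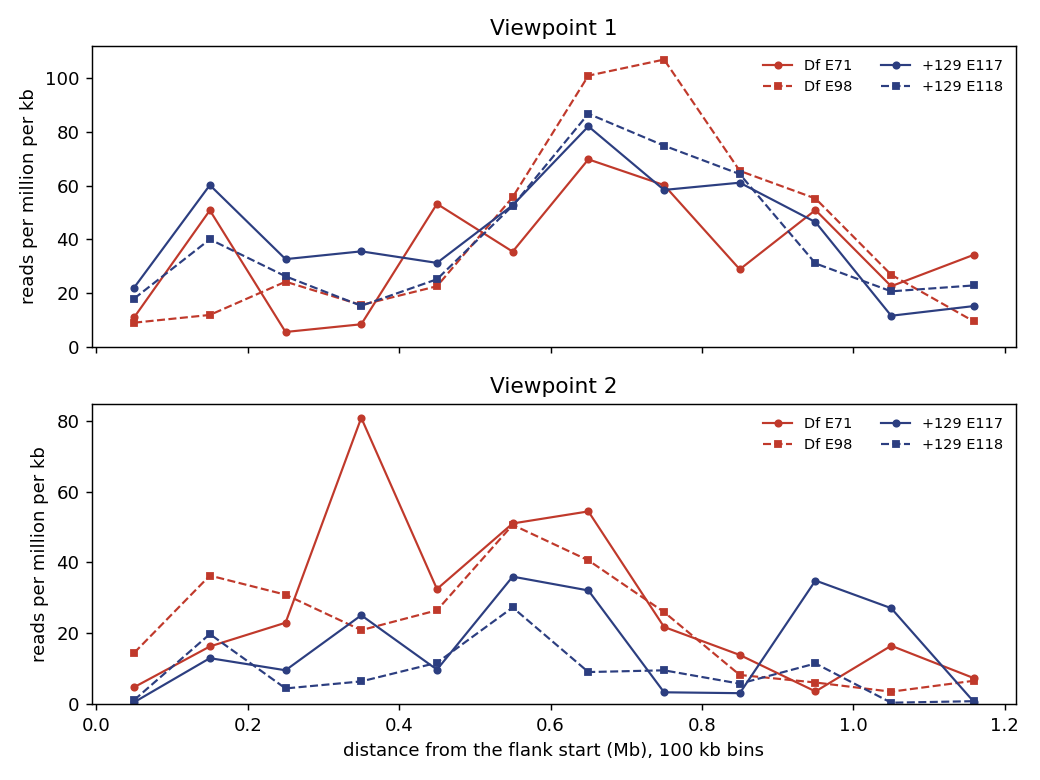
Contact profile along the distal flank in bins of 100 kb, for viewpoints 1 and 2, with the distance from the flank start in Mb on the horizontal axis and RPM per kb on the vertical axis. Lines are single Df and +129 libraries. From viewpoint 2 the Df lines run above the +129 lines over most of the first 8 bins, and from viewpoint 1 they cross.

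Reads were then compared in windows of 80 kb with edgeR's quasi-likelihood test, fitted over all of chromosome 4 for each viewpoint with Benjamini-Hochberg adjustment over all windows of the comparison. No flank window passed the threshold of 0.05 between Df and +129, with 0 of 30 at viewpoints 1 and 2, 1 of them at an unadjusted p under 0.05. DESeq2 also called 0, with 4 at an unadjusted p under 0.05. Over the whole chromosome 0.972% of the windows passed, namely 32 of 181 in the deleted interval (17.7%) and 2 of 3257 elsewhere (0.0614%). With 2 libraries a group, the test passed few windows anywhere outside the deleted DNA.

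The direction of the windows differed between the viewpoints. From viewpoint 2, 13 of the 15 flank windows were higher on Df, with a median log2 fold of 1.95, against a median of -0.36 over all windows. In 10 of the 15 (66.7%) both Df lines were above both +129 lines. Over all tested windows outside the deleted interval the share was 9.24%. In 1 of 15 (6.67%) both Df lines were below, against 30.7% outside the interval. Scaled by total reads in place of TMM (trimmed mean of M values), the median over all windows moved to -0.88 and that of the flank to 1.14. From viewpoint 1, 5 of 15 flank windows were higher on Df, with a median log2 fold of -0.21 against -0.39 over all windows. Both Df lines were above in 1 of 15 (6.67%, against 11% of windows outside the interval) and below in 2 (13.3%, against 18.8%).

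The flank window with the smallest p from viewpoint 2 was chr4:154731695-154811694, which holds the starts of Prkcz, Gabrd and 2010015L04Rik. It had 5503.6 and 604.6 RPM on Df and 282.7 and 494.3 on +129. Line E71 was far above the other 3 libraries, and the groups did not overlap. Fragment 76, described below, lies in it. The log2 fold was 3.60 with a standard error of 1.48, and the edgeR adjusted p was 0.569. On the C57BL/6J homologue the same window had 94.3 and 823.7 on +DBl6 and 119 and 956.3 on +Bl6, which overlapped (log2 fold -0.01). Without the Df library of E98, the Df window passed the test (edgeR adjusted p = 0.0123), with Df then resting on E71 alone. From viewpoint 1 the smallest p belonged to the third window, with 2422.5 and 461.1 on Df and 4748.8 and 3310.2 on +129, lower in both Df lines (log2 fold -1.68, standard error 0.95, edgeR adjusted p = 0.941).

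Between +DBl6 and +Bl6, edgeR passed 0 of 179 flank windows over all viewpoints, 7 of them at an unadjusted p under 0.05, and DESeq2 passed 4. Over the whole chromosome edgeR passed 0.188%, and 0.107% outside the flank and the deleted interval. From viewpoint 2 both +DBl6 lines were above in 2 of 15 flank windows (13.3%, against 6.58% outside the interval) and below in 6 (40%, against 29.4%), with a median log2 fold of -0.01. From viewpoint 1 they were above in 4 (26.7%, against 9.3%) and below in 0 (against 24.3%), with a median of 0.31. Between +129 and +Bl6, 0 of 150 flank windows passed by edgeR and 0 by DESeq2, 3 had an unadjusted edgeR p under 0.05, and 0% of all windows passed.

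**Figure D4:**
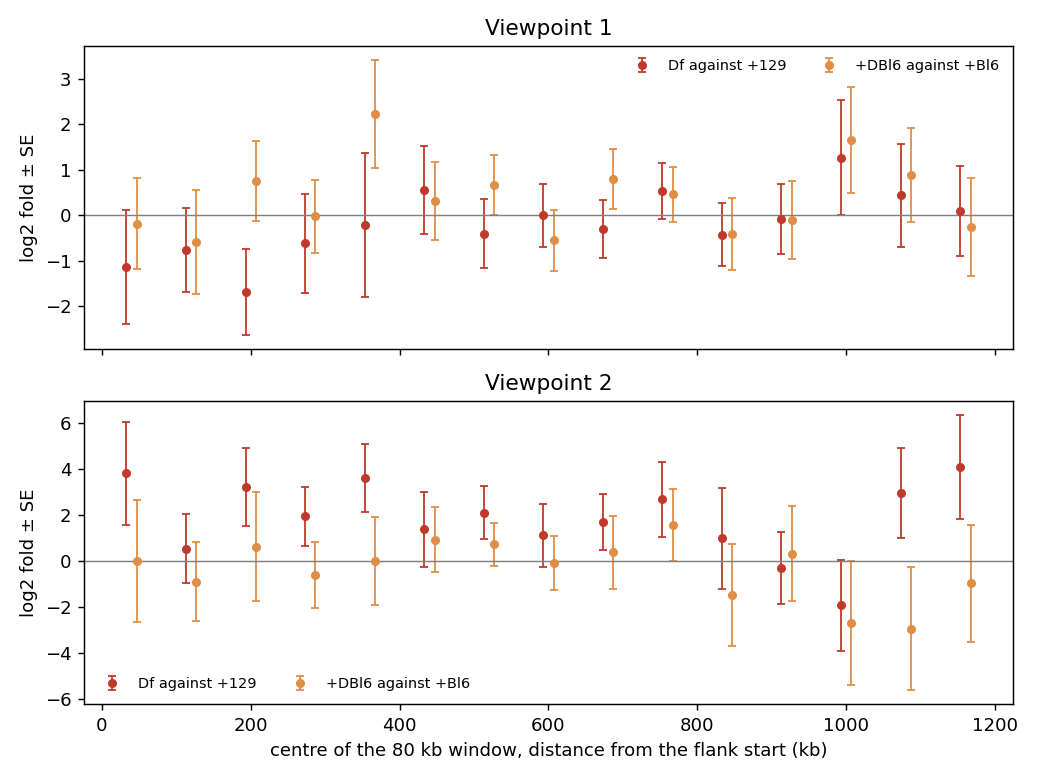
Log2 fold of reads per 80 kb window along the distal flank (edgeR, points with standard error) against distance from the flank start in kb, for Df over +129 and +DBl6 over +Bl6 at viewpoints 1 and 2. From viewpoint 2, 13 of 15 windows are above 0 for Df over +129, and the +DBl6 windows lie around 0 (median -0.01).

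Gene starts were compared by the reads within 10 kb on each side. Of 25 genes listed by role, 22 start in the flank, Hes5 and Tnfrsf14 start in the deleted interval and Noc2l was not matched in the flank. Neighbouring genes share fragments, so their values are not independent. From viewpoint 2, both Df lines were above both +129 lines at 20 of the 52 coding gene starts of the flank (38.5%), against 6.95% of the coding gene starts of chromosome 4 outside the interval, and below at 2 (3.85%, against 19.1%). For +DBl6 against +Bl6 the counts were 4 above (7.69%, against 5.86%) and 12 below (23.1%, against 17.8%).

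Of the listed genes, 10 of 22 were above from viewpoint 2 (45.5%) and 1 below (4.55%). Among genes of the synapse and the extracellular matrix these were 4 of 5, namely Gabrd, Mmp23, Mxra8 and Agrn. Gabrd encodes the delta subunit of the GABA-A receptor and lies at chr4:154759089-154772221. Its start had 975 and 285 RPM on Df and 3.25 and 249 on +129. These 4 values rest on 139, 88, 1 and 107 reads. On the C57BL/6J homologue +DBl6 (20.2 and 545) overlapped +Bl6 (89.2 and 319), and the higher value of each was above that of Df in E98. Agrn, at chr4:155539399-155571536, encodes agrin, a matrix proteoglycan that organises the neuromuscular junction, and had 862 and 407 on Df against 91 and 0. Mmp23, at chr4:155024764-155027493, encodes a matrix metalloproteinase and had 638 and 760 against 35.7 and 39.6. The 4 Mmp23 values rest on 91, 235, 11 and 17 reads, and on the C57BL/6J homologue +DBl6 (6.73 and 162) overlapped +Bl6 (83.3 and 171).

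Among the genes of RNA processing, cell cycle and housekeeping 5 of 9 were above, namely Pex10, Rer1, Mrpl20, Ccnl2 and Aurkaip1. Pex10, a peroxisome biogenesis gene near the breakpoint at chr4:154441125-154446542, had 196 and 314 on Df against 6.5 and 2.33 on +129, where those values rest on 2 and 1 reads. On the C57BL/6J homologue its start was also higher in both deletion lines, with 20.2 and 87 on +DBl6 against 5.95 and 15.7 on +Bl6. Of the 3 immune genes, Isg15, a ubiquitin-like interferon-induced protein, was above with 862 and 453 against 81.2 and 0, a start that lies beside that of Agrn. Tnfrsf18, a costimulatory receptor of T cells, was below with 14 and 9.7 against 2326.6 and 448, and was also lower on +DBl6 (0 and 119) than on +Bl6 (128 and 458).

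None of the 5 signalling genes separated from viewpoint 2. Ski, a repressor of TGF-beta signalling at chr4:154528184-154596701, had 989 and 110 on Df and 429 and 6.99 on +129. Prkcz, the atypical protein kinase C zeta at chr4:154634238-154735470, had 1542.4 and 1144.5 against 2047.1 and 83.9. Dvl1, a Wnt signalling adaptor at chr4:155221511-155233412, had 0 and 129 against 9.75 and 95.6. For each of these, the 2 lines of at least 1 group differed by more than the group means did.

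From viewpoint 1, both Df lines were above at 8 of 52 coding gene starts (15.4%, against 8.96% of those outside the interval) and below at 7 (13.5%, against 14.2%). Of the 22 listed genes, 4 (18.2%) were above, namely Mib2, Mmp23, Tnfrsf4 and Tnfrsf18, and 2 (9.09%) below, Prkcz and Rer1. Mmp23 was above from both viewpoints, with 2759.8 and 2663.5 on Df and 1247.3 and 1384.8 on +129 from viewpoint 1. Prkcz, in contrast, had 92 and 311 on Df and 1427.7 and 800 on +129, and Rer1, a retention receptor of the endoplasmic reticulum, 276 and 247 against 1337.5 and 936. Rer1 was thus above from viewpoint 2 and below from viewpoint 1. For +DBl6 against +Bl6 from viewpoint 1, 6 of 52 starts were above (11.5%, against 9.34%) and 8 below (15.4%, against 15.3%), with 4 of the 22 listed genes above (18.2%), namely Ski, Tnfrsf18, Pex10 and Ssu72, and 0 below.

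Single fragments carried large parts of these totals. Among all flank fragments, the top one of a library held 13.5% and 4.54% of the flank reads on Df from viewpoint 2 and 15.4% and 15.8% on +129. Without it the Df over +129 ratio was 2.13. Fragment 146, at the start of B930041F14Rik (chr4:155066297-155069653), had 3701.8 and 398 RPM on Df and 2326.6 and 4.66 on +129, so lines E71 and E117 were high, and at most 83.3 on +DBl6 and +Bl6. Fragment 76 (chr4:154791096-154804207, an exon of 2010015L04Rik) had 4423.9 and 12.9 on Df and 3.25 and 235 on +129 and was thus high in a single 129S5 library, while the +Bl6 library of E118 had 588. Fragment 110, a piece of 20 bases in an intron of Gnb1 (chr4:154914306-154914325), had 3056.8 and 1105.7 on Df, 0 and 39.6 on +129, 47.1 and 522 on +DBl6 and 0 and 1122.4 on +Bl6. Both Df lines were above both +129 lines, but the +Bl6 library of E118 reached the level of the lower Df line. It holds no site for the second enzyme.

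From viewpoint 1, fragment 188, which holds the start of Tas1r3, a subunit of the sweet and umami taste receptors (chr4:155237218-155241541), had 828 and 2283.3 RPM on Df, 1993.7 and 2048.6 on +129, 1123.9 and 700 on +DBl6 and 1575.4 and 1615.1 on +Bl6. Its neighbour, fragment 187 in an exon of Tas1r3, had 1625.2 and 1193.2 on Df, 832 and 1394 on +129, 366 and 641 on +DBl6 and 43.8 and 1515.9 on +Bl6. Fragment 131, in an exon of Cdk11b (chr4:155012202-155013397), had 0 and 1276.1 on Df, 2534.7 and 934 on +129, 26.1 and 1799.5 on +DBl6 and 1901.2 and 1661.2 on +Bl6. The lines of a group thus differed widely at fragments 187 and 131. At fragments 188, 187 and 131 the Df and +129 values overlapped.

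The flank was next described as a target of the other viewpoints on +129, +Bl6 and +DBl6. Its share of the reads followed no order of distance. Viewpoint 1, at 6.43 Mb the farthest, gave a median of 4.27% (3.48% to 5.1%, 6 libraries). Viewpoint 2 gave 1.1% (0.936% to 1.93%), viewpoint 3 at 3.98 Mb 3% (2.36% to 3.61%) and viewpoint 4 at 3.42 Mb 0.962% (0.937% to 1.14%). Viewpoint 5 at 2.8 Mb gave 4.32% (3.28% to 4.68%), viewpoint 6 at 2.27 Mb 1.12% (0.708% to 1.44%) and viewpoint 7 at 1.93 Mb 0.717% (0.478% to 1.59%). Viewpoint 8 at 1.49 Mb gave 1.25% (1.06% to 1.71%), viewpoint 9 at 0.983 Mb 3.68% (2.98% to 4.04%) and viewpoint 10 at 0.474 Mb 4.29% (3.91% to 7.69%). The highest of these, 7.69%, came from a library of line E117 with 156 reads outside the viewpoint zone.

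Read in the order of their medians, viewpoints 1, 3, 5, 9 and 10 (3% to 4.32%) were apart from viewpoints 2, 4, 6, 7 and 8 (0.717% to 1.25%), with no overlap of the libraries' ranges, while inside each of these sets the ranges of neighbours overlapped. The sets were formed after the values were seen. Over the 10 viewpoints, which share the same 4 lines, Spearman's rho between the median share and the distance was -0.139. By captured fragments the medians ran from 2.39% at viewpoint 6 to 5.84% at viewpoint 10, a range of 2.44 times where that of the reads was 6.03 times, and rho was 0.212. Viewpoint 2 on Df, at 3.27% and 2.71%, lay above the range of the second set.

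Viewpoints 11 and 12 lie inside the flank and gave it far larger shares. From viewpoint 11 the share was 65.8% and 68% on Df and 68.1% and 61.3% on +129, which overlapped (66.9% ± 1.57 against 64.7% ± 4.86, exact permutation p = 1). The +129 library of E117 stands apart there: the deleted interval held 1.71% of its reads against 7.94% in E118, and it shared 59.1% of its distant fragments with the Df library of E71 (r = 0.681). The +Bl6 library of E117 and the +DBl6 library of E71 shared 59.7% there (r = 0.726), so these lines shared fragments on both homologues, and whether reads passed between their libraries was not tested. From viewpoint 12 the share was 48.2% and 54% on Df and 42.2% and 44.8% on +129, above in both Df lines (51.1% ± 4.14 against 43.5% ± 1.84, exact permutation p = 0.333). The deleted interval held 0.182% and 0.353% of the Df reads there and 12.1% and 12.3% of the +129 reads, and without it in the denominator the groups overlapped (51.2% ± 4.22 against 49.5% ± 2.17, ratio 1.03). By captured fragments they overlapped as well (4.63% ± 1.08 against 3.81% ± 0.328). It was also higher on +DBl6 than on +Bl6 (47.5% ± 1.52 against 42.3% ± 3.81, p = 0.333 by the same exact test). edgeR passed 0 of 30 flank windows at these 2 viewpoints between Df and +129, and the median log2 fold at viewpoint 12 was -0.41.

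Contacts of viewpoint 12 with the near side of the flank stood out on Df, a pattern chosen for description after its values were seen. Segment 1 had 6.55 and 9.29 RPM per kb on Df, against 34.7 and 30.7 on +129 and 29.9 to 57.9 over the 6 libraries of the other 3 chromosomes. Captured fragments in that segment numbered 22 and 33 of 59 on Df, 44 and 49 on +129 and 41 to 49 over those 6 libraries. Segment 2 had 27 and 23.2 on Df and 44 to 62.2 in the others. Segment 4, which holds viewpoint 12, had 1649.4 and 1937.7 on Df and 1235.9 to 1621.5 in the others. From viewpoint 11, in segment 2, segment 1 had 207 and 220 on Df, within the 137 to 221 of the others.

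Position along the flank was described for the same undeleted libraries of viewpoints 1 to 10, 54 after merging. The densest segment was segment 1 in 15, segment 2 in 20, segment 3 in 9 and segment 4 in 10 of them. From viewpoint 2 segment 2 was densest in 6 of 6 libraries (median 19.4 RPM per kb, against 7.06, 8.87 and 4.17 in segments 1, 3 and 4). From viewpoint 6 segment 4 was densest in 4 of 5 (median 19.9, against 6.65 in segment 1). From viewpoint 10, the nearest to the flank, segments 1 and 2 had medians of 49.5 and 56.5 and segments 3 and 4 of 18.5 and 17, and segment 1 exceeded segment 4 in 6 of 6. From viewpoint 9, at 0.983 Mb, segment 4 (median 38.8) exceeded segment 1 (37.3) in 3 of 4 libraries, with overlapping ranges. Segment 1 exceeded segment 4 in every library from viewpoints 3, 5 and 10, and in none from viewpoint 6. The segments between did not always lie in order: from viewpoint 3 segment 3 was densest in 4 of 6 libraries.

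Differences between the undeleted chromosomes were small beside the difference between viewpoints. The flank share on +DBl6 over +Bl6 ran from 0.659 to 1.22 over viewpoints 1 to 10, with 2 of 10 above 1. By captured fragments it ran from 0.977 to 1.47, with 9 of 10 above 1. Of 5 viewpoints with 2 libraries in each group, +DBl6 was above in both lines at viewpoint 3 (3.13% ± 0.303 against 2.57% ± 0.3), below at viewpoint 5 (3.48% ± 0.291 against 4.4% ± 0.399) and overlapped at 3. By captured fragments viewpoint 3 overlapped. Both +DBl6 lines were then above at viewpoint 2 (4.34% ± 0.155 against 3.11% ± 0.327) and at viewpoint 5 (3.22% ± 0.253 against 2.95% ± 0.107). The share on +129 over +Bl6 ran from 0.997 to 1.39, above 1 at 9 of 10 viewpoints, and by captured fragments from 0.905 to 1.16, above 1 at 6. Of 9 with a test, +129 was above at viewpoints 1 (4.96% against 3.85% ± 0.535), 3 (3.35% ± 0.366 against 2.57%) and 6 (1.42% ± 0.0289 against 1.08% ± 0.063) and overlapped at 6. These chromosomes are the homologues of the same lines, E117 and E118, a pairing that the exact test did not use. The upper ends of +129 over +Bl6, 1.39 by reads and 1.16 by captured fragments, both came from viewpoint 10. There the libraries of E117 held 156 and 391 reads outside the viewpoint zone, and in E118 the shares were 4.29% and 4.28%. In all, 22 exact permutation tests of flank shares were made, with a smallest p of 0.333 and a smallest Benjamini-Hochberg adjusted p of 0.916.

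How often a fragment was captured at all was described over the 60 libraries of viewpoints 1 to 10 without Df, before merging. The median flank fragment was captured in 32 of them and the most captured in 53. At least 30 libraries captured 174 of the 281 fragments (61.9%), against 80.2% of the deleted interval and 1.05% of the rest of the chromosome, most of which lies far from all viewpoints. Fragments under 500 bases were captured in 35.6% of the libraries on average, and those of the 3 longer classes in 52.1%, 51.8% and 52.4%, with no rise with length among them. Fragments holding a coding gene start were captured in 52.7% and the others in 49.5%. Across the 281 fragments, which share the same libraries and are not independent, Spearman's rho of capture was 0.133 with length, 0.0219 with base composition and -0.14 with position.

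The most captured fragment was 62, in an intron of Prkcz (chr4:154722102-154726403), with reads in 53 of 60 libraries and the highest median level of the flank, 510 RPM against 2.78 for the median fragment. From viewpoint 2 it had 1416.2 and 824 on Df and 1757.9 and 74.6 on +129, which overlapped. Fragments 83 (an exon of C030017K20Rik), 105 (an intron of Gnb1) and 115 (an intron of Nadk) were captured in 52 libraries each and fragment 53 (an exon of Prkcz) in 50. Fragment 115 (chr4:154951842-154952534, 693 bases) borders the fragment of viewpoint 11, which itself had the second-highest median, 298 RPM. Its median was 249, and the neighbour on the other side had a median of 0 and at most 28.7. Whether products primed at viewpoint 11 enter the counts of other viewpoints there was not tested. Leaving out 20 kb around viewpoints 11 and 12 left the Df over +129 ratio at 1.98 from viewpoint 2 and moved it to 0.974 from viewpoint 1.

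No library of the 96 had a read on 13 flank fragments (4.63%, against 1.53% of the deleted interval and 23.2% of the rest of the chromosome). Of these, 11 had no site for the second enzyme or no end that is unique in the genome. They include a run of 6 consecutive fragments, 197 to 202 (chr4:155286210-155297520, with no gene), and the last pair of the chromosome. The last fragment with any read was 279 (chr4:155606679-155623063), captured in 1 of 96 libraries, so the final 7.06 kb before the telomere could not be read. Fragment 77 (chr4:154804208-154814440) was the exception among the long ones, with 10233 bases, 21 sites for the second enzyme and 2 unique ends, and it too was never captured.

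**Figure D5:**
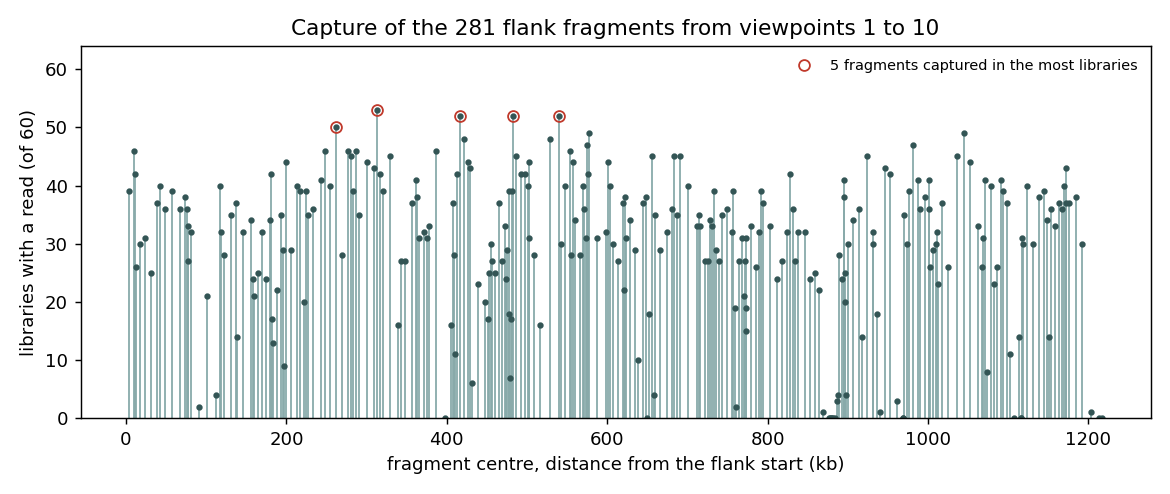
Number of the 60 libraries of viewpoints 1 to 10 without Df that captured each of the 281 flank fragments, against distance from the flank start in kb. Each point is 1 fragment. Capture is spread over the whole flank, with a median of 32 libraries and a maximum of 53 at fragment 62, and drops to 0 in a run of 6 fragments and at the chromosome end.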

How the data were processed

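The authors split read pairs by sample and by a polymorphism in the viewpoint read, trimmed the interacting read to 30 bases, aligned it with Bowtie (version not given in the sources used here; at most 3 mismatches, unique hits) to HindIII fragment ends of mm9, and deposited raw read counts per fragment. HindIII was the first and DpnII (GATC) the second enzyme. In 16 further deposited tables the authors list regions of differential contact with their start and end. They hold the authors' comparisons and were not used.

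Reads within 20 kb of the viewpoint fragment were left out. Read sums over 80 kb windows entered edgeR 4.0.16 (R 4.3.3, quasi-likelihood, TMM) where 50% or more of the libraries had 10 reads or more, with DESeq2 1.42.0 as an alternative, and shares with exact two-sided permutation tests over lines (scipy 1.17.1). The scripts were tested on simulated counts. Replicate pairs whose reads at fragments over 10 Mb from the viewpoint correlated above 0.9 were added up as 1 library. Viewpoints with a library under 2000 reads entered no window test of +129 against +Bl6. Intervals are Wilson intervals at 95%. The lines of a group are separate embryo-derived cultures. E71 and E117 shared 1 DNA purification kit, and E98 and E118 shared another, which was used as a block in the alternatives. Same-numbered differences over windows correlated at 0.04 to 0.60 for Df against +129, -0.07 to 0.58 for +DBl6 against +Bl6 and 0.01 to 0.44 for +129 against +Bl6.

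Named fragments are the 3 with the highest mean share over the Df and +129 libraries at viewpoints 1 and 2 and the 5 captured in the most libraries. Named windows are those with the smallest p where none passed, and genes come from a list by role. Members, lists and tests were chosen with earlier results of these data known.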

Additional observations from a re-analysis of the deposited data

Results flagged for a closer look

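Between +DBl6 and +Bl6, the flank share differed in opposite directions at different viewpoints. Both +DBl6 lines were above both +Bl6 lines at viewpoint 3 (ratio 1.22) and at viewpoint 12 (ratio 1.12), and both were below at viewpoint 5 (ratio 0.792). By captured fragments the ratios were 1.21, 1.36 and 1.09 at viewpoints 3, 12 and 5, so the directions no longer differed. The difference between these viewpoints was not tested, and each exact permutation p was 0.333. Viewpoints 3 and 5 lie inside the deleted interval, which is intact on both chromosomes compared.

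All 16 Df libraries of viewpoints 3 to 10 held more than 3 reads in the flank, although the viewpoint sequence is deleted on Df. These libraries held 845 to 31156 chromosome 4 reads and 5 to 374 flank reads, and the flank share ran from 0.619% to 5.46% with a median of 2.04%. Of its distant fragments, Df of E71 shared 98.4% and 99.2% with +DBl6 of E71 at viewpoints 3 and 10. At viewpoint 5 it shared 51.2% with +DBl6 of E71 and 91.4% with +129 of E117. Df of E98 shared 40.7% with +DBl6 of E98 at viewpoint 6 and 94.4% with +129 of E118 at viewpoint 10. The source of the reads, and whether reads passed between libraries, was not tested.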

How the results depend on the processing

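Over 43 results and 426 alternatives, direction and call held in 365, 56 reversed (27 of them by leaving out a line) and 5 counts of windows moved. With 2 lines against 2 no share could pass its test, so direction is all that these alternatives show, and the causes were not tested. From viewpoint 2 the Df over +129 share was above 1 in all alternatives run, from 1.55 to 2.76 with a line left out. Each of them left out a zone around the viewpoint. Over all chromosome 4 reads the groups overlapped, and the mean share was lower on Df than on +129. The flank median log2 fold there ran from 0.79 to 2.24. From viewpoint 1 the Df over +129 share crossed 1, at 0.883 to 1.02 with a line left out and 1.32 by captured fragments.

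Captured fragments in place of reads turned +DBl6 over +Bl6 to 1.4, 1.14, 1.09, 1.2, 1.47, 1.22 and 1.18 at viewpoints 2, 4, 5, 6, 7, 8 and 9 and +129 over +Bl6 to 0.996, 0.905, 0.982 and 0.986 at viewpoints 3, 4, 9 and 12. For Df minus +129 it turned segment 2 to 1.75 percentage points at viewpoint 1 and -2.19 at viewpoint 2, and the viewpoint 1 window median to 0.12 (0.06 with 40 kb windows). Without the deleted interval in the denominator, Df over +129 was 0.993 at viewpoint 11, +DBl6 over +Bl6 was 1.15 at viewpoint 4 and 1.11 at viewpoint 9, and +129 over +Bl6 was 0.945 at viewpoint 4 and 1.02 at viewpoint 8. A 50 kb zone gave 1 for +DBl6 over +Bl6 at viewpoint 2, and 1.01 and 0.987 for +129 over +Bl6 at viewpoints 8 and 12. A minimum of 5 reads gave 1.88 at viewpoint 10 (+DBl6) and 1.02 at viewpoint 8 (+129). Leaving out 20 kb around viewpoints 11 and 12, added after the data were seen, gave 1.09 (+DBl6) and 1.19 (+129) at viewpoint 8.

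With a line left out, shares that crossed 1 were Df over +129 at viewpoint 11 (0.982 to 1.09), +DBl6 over +Bl6 at viewpoints 1 (0.977 to 1.19), 2 (0.796 to 1.04), 7 (0.724 to 1.09), 8 (0.796 to 1.03) and 11 (0.971 to 1.04), and +129 over +Bl6 at viewpoints 2 (0.952 to 1.69), 4 (0.936 to 1.11), 5 (0.979 to 1.11), 7 (0.579 to 1.93), 8 (0.763 to 1.23), 10 (0.996 to 1.78), 11 (0.976 to 1.09) and 12 (0.965 to 1.1). Segment differences that crossed 0 were segments 2 (-6.72 to 0.955), 3 (-4.36 to 15.4) and 4 (-0.163 to 10.3) at viewpoint 1 and segments 1 (-4.52 to 11.9) and 2 (-2.03 to 11.4) at viewpoint 2, and the viewpoint 1 window median ran from -0.44 to 0.07.

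Flank windows called rose to 1 for Df against +129 without the Df library of E98. For +DBl6 against +Bl6 they rose to 2 without the +DBl6 library of E98 and to 4 with DESeq2. For +129 against +Bl6 they rose to 14 with all libraries as labelled, at viewpoint 9, where the pairs share molecules. With the replicate block, 1 window passed for +129 against +Bl6 (window 14 of viewpoint 12, edgeR adjusted p = 0.00325). With purification as the replicate block, the Df over +129 share was 0.948 and 2.06 at viewpoints 1 and 2 (window medians -0.23 and 2.24), the flank over the stretch at the same distance was 1.51 and 2.07, 0 windows passed for Df or +DBl6, and the block changed no other direction.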

Other observations

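The flank was also set beside the stretch of equal length at the same distance on the other side of each viewpoint, a comparison added after the data were seen. From viewpoint 1 that stretch (chr4:140318729-141537776, 35 coding genes) held 1.76% to 2.55% of the reads, below the flank in 6 of 6 undeleted libraries. From viewpoint 2 it held 0.0216% to 0.242% and was below the flank in 6 of 6. At viewpoint 2, 2.97% to 6.19% of the fragments of that stretch were captured, against 23.5% to 51.2% of the flank fragments. At viewpoint 3 the corresponding values were 0.952% to 3.49% and 42.7% to 80.4%. The flank was also higher in 6, 5, 6 and 5 libraries, all there were, at viewpoints 3, 4, 5 and 6 and in 3 of 5 at viewpoint 7. It was lower in all 5 libraries of viewpoint 8 and all 4 of viewpoint 9 and higher in 2 of 6 at viewpoint 10, whose other stretches lie inside the deleted interval. The stretches differ in gene number from 6 to 35 coding genes. The part of gene density in these orders was not tested, nor was that of how uniquely reads can be placed in each stretch.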
